A study of Mus musculus with 20 samples.

Results

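The 8 genes described here serve fat storage in an adipocyte, through triglyceride synthesis, glyceroneogenesis or the passage of glycerol. They were taken by name, as Gpam, Agpat2, Lpin1, Dgat1, Dgat2, Mogat1, Pck1 and Aqp7, out of 36611 genes in the tables, and their levels were the summed TPM of their transcripts (a level per length of transcript, scaled to a common total in each library). The 20 libraries came from the inguinal white adipose tissue (iWAT), a depot under the skin, of female C57BL/6 mice aged 6 months. Per the methods, the floxed line was C57BL/6 N Tac and was crossed with a Cre line on C57BL/6 J. Adipocyte-specific Ad-Tmem120a-/- knockout mice carried Tmem120a fl/fl alleles with exons 2 and 3 flanked by loxP sites and a Cre transgene under the Adipoq promoter, which is active in mature adipocytes and not in the other cells of the depot. Control littermates, called wild type in the labels, carried the fl/fl alleles without Cre. For the 15 weeks before collection the mice ate a diet low in fat (LFD) or rich in fat (HFD), at 10.5% and 58% fat, and the diets also differ in their carbohydrate. Each of the 4 groups held 5 mice.

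Triglyceride is built on glycerol 3-phosphate, which adipocytes make from glucose or, by glyceroneogenesis, from pyruvate and lactate by way of the cytosolic phosphoenolpyruvate carboxykinase Pck1. Gpam adds the opening acyl chain in mitochondria, Agpat2 adds the next, the phosphatase Lpin1 removes the phosphate, and Dgat1 or Dgat2 adds the last acyl chain to diacylglycerol. Mogat1 makes diacylglycerol from monoacylglycerol instead, and Aqp7 is the channel through which glycerol crosses the adipocyte membrane. Loss of AGPAT2 causes lipodystrophy in people, and loss of Lpin1 does so in mice.

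Each library held between 54605101 and 92387737 estimated counts, and log2(TPM + 1) correlated between libraries of a group at r from 0.942 to 0.984. Tmem120a, the targeted gene, was at 85.4 TPM on average in control LFD libraries, 41.5 in knockout LFD, 119 in control HFD and 51.6 in knockout HFD, and the ranges of the genotypes overlapped on both diets. Markers of other cell types also moved: all 16 skeletal muscle fibre genes were lower on HFD in control mice, 11 of them past the test, and their summed level ran from 76.3 to 4299 TPM in control LFD and from 53.0 to 135 in control HFD libraries. The 4299 TPM were those of control LFD replicate 5, and the other control LFD libraries were at 76.3 to 362 TPM. The part of these markers in the results below was not tested. In bulk tissue, fewer cells of a type and less RNA per cell cannot be told apart.

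All 8 genes were expressed in every library, and their order by mean level over the 20 libraries ran from Pck1 (375 TPM) through Agpat2 (233), Dgat2 (183), Gpam (70.7), Dgat1 (62.2), Lpin1 (48.2) and Aqp7 (38.2) to Mogat1 (9.62). Over single libraries Agpat2 ran from 77.1 to 523 TPM. Dgat1 ran from 35.0 to 117 TPM, Lpin1 from 26.5 to 68.2 TPM and Mogat1 from 3.32 to 13.8 TPM. The highest group mean was 2.08 times the lowest for Dgat2, 1.43 times for Pck1, and between 1.19 and 1.38 times for the other 6 genes. Set in order, neighbouring groups differed by less than the larger of their standard deviations in every gene, with 1 exception, Aqp7 between control HFD (45.1 TPM) and knockout HFD (36.5 TPM).

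**Figure D1:**
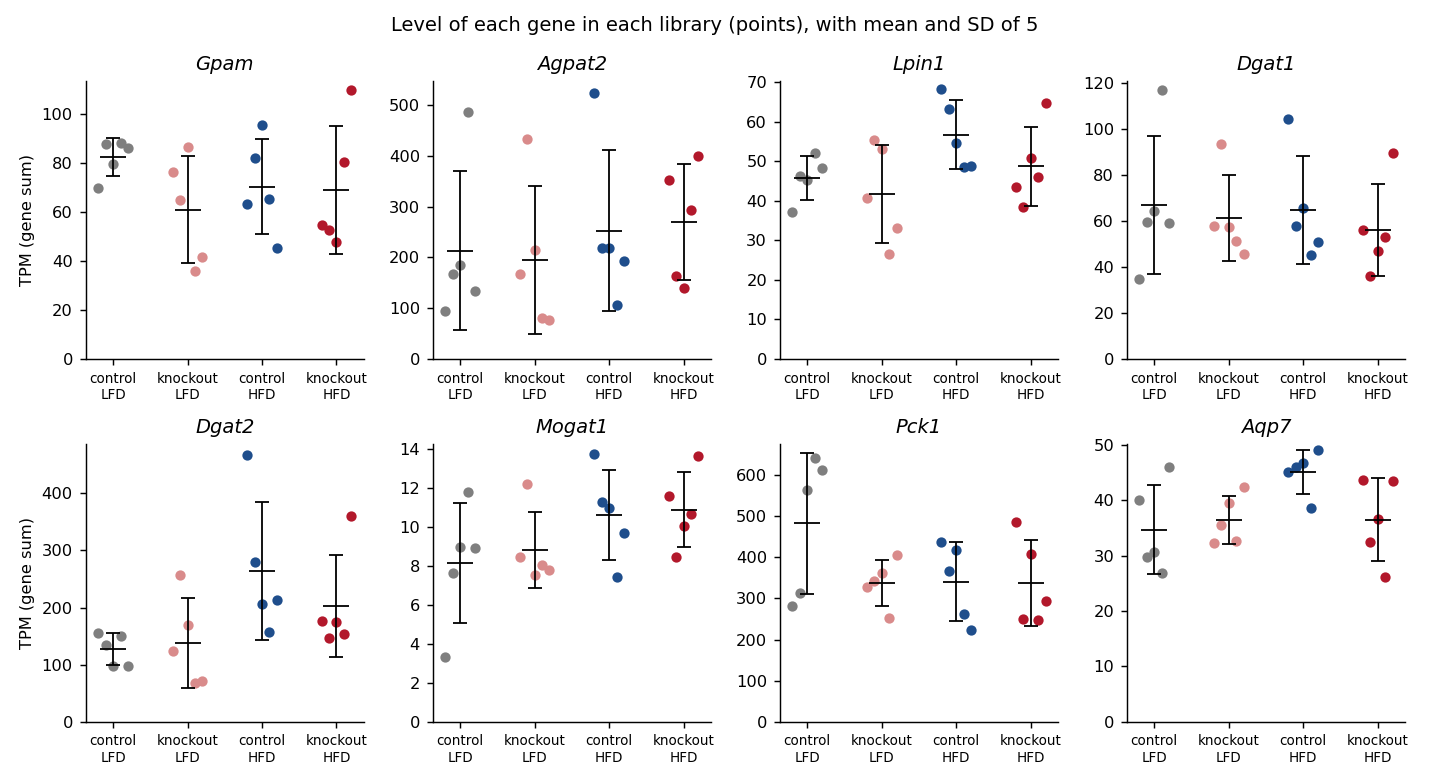
Summed TPM of the 8 genes (y axes, from 0) in the 20 libraries, by group (x axes). Points are mice and bars are the mean and SD of 5. Dgat2 in control mice is the gene whose LFD values (96.8 to 155 TPM) and HFD values (157 to 467 TPM) do not overlap. Their margin is smaller than the 0.20 log2 units by which the TPM scale sat higher on HFD in control mice.

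How far the transcripts behind these sums varied between libraries differed from gene to gene. Dgat2, on chr7:106302173-106331223 (minus strand, NCBIM37), had a single annotated transcript, so its level did not depend on how reads were shared among isoforms. Pck1-001 held 95.6% of Pck1 on average and Gpam-201 held 89.6% of Gpam. Dgat1 was divided between Dgat1-008 (43.3%) and Dgat1-001 (38.7%). Mogat1-201 held 84.1% of Mogat1, but it was listed at 0 in control LFD replicate 1, the library with the lowest Mogat1 level. Aqp7 was shared by Aqp7-001 (69.7%) and Aqp7-002 (28.0%), and Aqp7-002 had at most 3 counts in 8 of the 20 libraries.

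**Figure D2:**
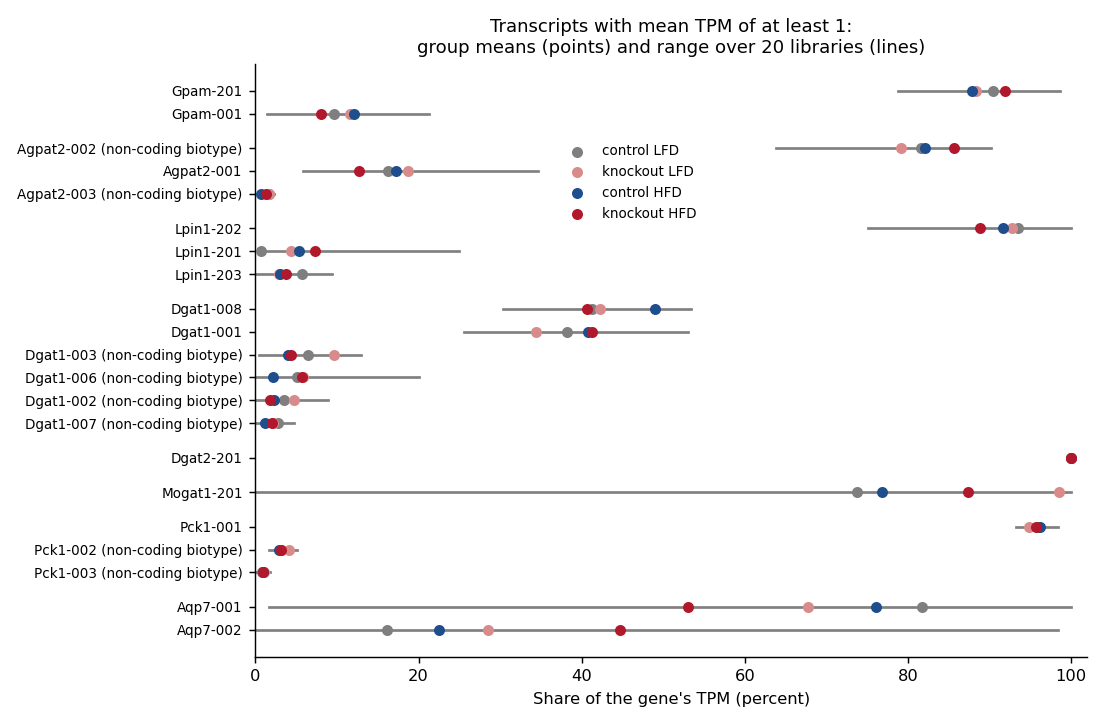
Share of each gene's TPM (x axis, percent) assigned to each transcript with a mean of at least 1 TPM (y axis). Points are group means and lines the range over 20 libraries; Agpat2-002 and Lpin1-202 hold most of their genes in every library, whereas Aqp7-002 ranges from 0 to 98.4%.

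In Agpat2 and Lpin1 the main transcript was set apart by a short piece of sequence, shown here because it decides which protein the reads can stand for. Agpat2-002, annotated as a processed transcript with no coding region, held 82.1% of Agpat2 (63.8% to 90.2% over libraries), and the coding Agpat2-001 held 16.2%. Their exons differ in that Agpat2-002 lacks the last 95 bases of exon 1, which are coding in Agpat2-001 and lie at chr2:26459549-26459643 (NCBIM37, minus strand). These bases are in capitals after the 15 exon bases that both transcripts share. The absent stretch begins with GT, the bases that open most introns, and its GC content is 67.4% against 55.3% for the Agpat2-002 transcript.
Agpat2 exon 1: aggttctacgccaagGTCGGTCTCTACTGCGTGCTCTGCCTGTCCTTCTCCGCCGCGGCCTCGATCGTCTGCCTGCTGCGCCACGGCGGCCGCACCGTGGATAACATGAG
Lpin1-202 held 91.7% of Lpin1 (75.1% to 100%). It alone carries a 99-base coding exon at chr12:16577970-16578068 (NCBIM37, minus strand), the exon that distinguishes lipin-1 beta from lipin-1 alpha, and all of its bases are in capitals.
Lpin1-202 exon: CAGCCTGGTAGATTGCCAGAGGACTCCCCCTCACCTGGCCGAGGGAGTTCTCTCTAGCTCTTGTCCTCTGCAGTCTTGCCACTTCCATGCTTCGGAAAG
Mean shares of Agpat2-002 lay between 79.1% and 85.6% in the 4 groups, and those of Lpin1-202 between 88.9% and 93.5%.

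Libraries differed in base composition within every group, and most of the 8 genes followed it. For each library, the deviation of each gene's log2(TPM + 1) from the gene's mean was regressed on GC content over 8892 other genes. The GC content was that of the gene's longest coding transcript. The GC slope (log2 units per 10 percentage points of GC) ran from -0.441 in knockout LFD replicate 9 to 0.381 in control HFD replicate 11. Log2(TPM + 1) of Agpat2 correlated with the slope at Pearson's r = 0.874 (permutation p = 1e-05, the smallest that the resamples can give, adjusted 4e-05 over 8 relations). Spearman's rho was 0.851 (permutation p = 1e-05, adjusted 4e-05), and r was 0.825 without the 2 libraries farthest from the median slope and 0.915 within groups. Aqp7 stood at the other end, with r = 0.170 (permutation p = 0.476, adjusted 0.476) and rho = 0.221 (permutation p = 0.345, adjusted 0.345), and r = 0.0230 without the 2 farthest libraries and 0.112 within groups. For the other 6 genes r ran from 0.512 (Pck1) to 0.861 (Dgat1), r within groups from 0.564 to 0.872, and r without the 2 farthest libraries from 0.441 to 0.895, and the largest adjusted permutation p was 0.0244 for r and 0.0130 for rho. Over the 8892 genes the median r was 0.0997, and 8.37% reached 0.8, as Agpat2, Dgat1 and Lpin1 did. An r of 0.5 was reached by 27.0% of them, and by all of the 8 genes but Aqp7. Among those of the 8892 with a GC content of at least 55%, the median r was 0.644. GC content was 58.03% for Agpat2, 56.51% for Dgat1, 56.2% for Dgat2 and 53.18% for Pck1. It was 50.02% for Lpin1, 49.7% for Aqp7, 48.48% for Gpam and 47.88% for Mogat1, and the median of the 8892 genes was 48.61%. Gpam and Mogat1 lay below that median and still correlated with the slope, at r = 0.629 and 0.663. The origin of the slope was not tested.

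**Figure D3:**
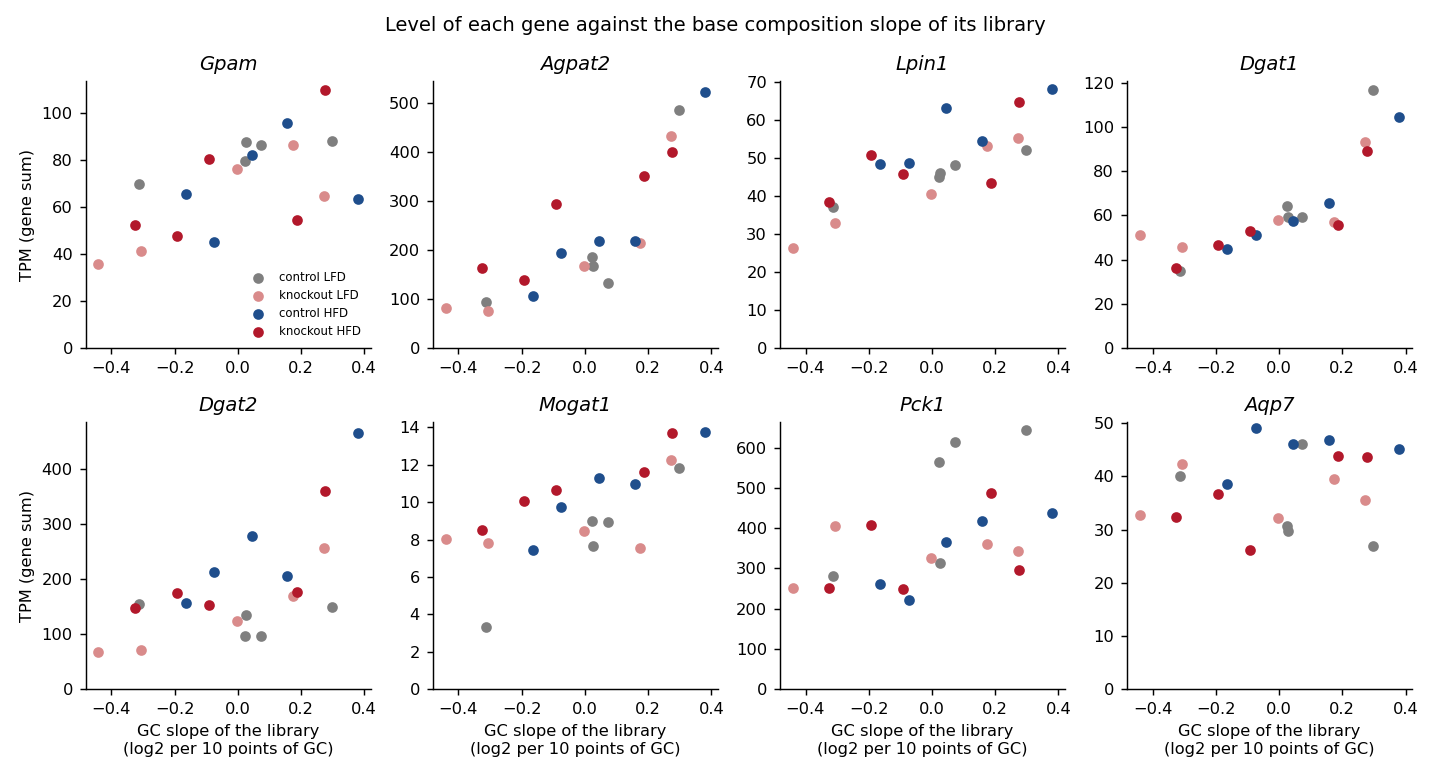
Summed TPM (y axes, from 0) against the GC slope of the library (x axes, log2 units per 10 percentage points of GC) for the 8 genes in 20 libraries, coloured by group. The library with the highest slope of each group lies at the right of every panel, and Agpat2, Dgat1 and Lpin1 climb with the slope whereas Aqp7 does not.

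The slope varied more within groups than between their means. The means were 0.0212 in control LFD, -0.0607 in knockout LFD, 0.0688 in control HFD and -0.0292 in knockout HFD, and the 4 two-sided exact permutation tests between groups gave p from 0.50 to 0.865. Each comparison below was also fitted with the slope as a covariate, an alternative added after the data were seen.

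How diet affects these genes in control mice was addressed by comparing HFD with LFD. By the main test (edgeR's quasi-likelihood test, adjusted p under 0.1) 0 of the 8 genes passed, beside 9.32% of the 15311 genes tested. At an unadjusted p under 0.05 there were 3, Dgat2, Gpam and Pck1, beside 20.7% of genes. The same 3 genes passed by DESeq2 (14.4% of genes passed) and by edgeR with the GC slope as covariate (24%). The TPM scale itself sat higher on HFD, by 0.20 log2 units for the median well-expressed gene relative to the edgeR scaling, so fold changes are given on the edgeR scale.

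Dgat2, an acyltransferase of the final step, had the largest log2 fold change of the 8 genes by edgeR, though not with the GC slope, where that of Pck1 was larger, nor without control HFD replicate 11. Its TPM was 155, 135, 97.5, 150 and 96.8 in control LFD libraries and 467, 279, 206, 157 and 213 in control HFD libraries. By TPM every HFD value lay above every LFD value, which among the 8 genes held for Dgat2 alone. Ranges without overlap were found for 9.78% of all genes tested. The nearest values, 155 TPM on LFD and 157 TPM on HFD, were closer than the 0.20 log2 shift of the TPM scale. Its estimated counts, not scaled for depth, overlapped, at 17147 to 30036 on LFD and 28536 to 83412 on HFD. The log2 fold change was 0.86 ± 0.281 (SE), a 1.81-fold difference with an adjusted p of 0.105 by edgeR, and 0.73 ± 0.256 with an adjusted p of 0.0794 with the GC slope. Leaving out control HFD replicate 11, the highest library, gave 0.55. The test was passed when control LFD replicate 1 (0.94, adjusted p = 0.0913), control LFD replicate 4 (0.98, adjusted p = 0.0786) or control HFD replicate 14 (0.99, adjusted p = 0.0739) was left out. Of the 18 white adipocyte markers 13 were higher and 5 lower on HFD, 4 rising and 1 falling past the test. Their median log2 fold change on the edgeR scale was 0.0954. Their summed level was 23416 to 31567 TPM on LFD and 30805 to 44892 TPM on HFD, on the TPM scale that sat higher on HFD. The part of these markers in the Dgat2 difference was not tested.

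Pck1 and Gpam, which supply and acylate glycerol 3-phosphate, pointed the other way. Pck1 TPM was 282, 313, 565, 643 and 613 in control LFD and 438, 366, 417, 262 and 223 in control HFD libraries. Of the LFD libraries 3 exceeded all HFD libraries and the remaining pair lay among them, so the groups overlapped. The log2 fold change of Pck1 was -0.73 ± 0.285 (adjusted p = 0.167 by edgeR), and -0.79 ± 0.201 (adjusted p = 0.0271) with the GC slope. It passed without control LFD replicate 1 (-0.86, adjusted p = 0.0768). The summed level of the 8 brown and beige adipocyte markers, all lower on HFD and 4 past the test, stood in the same order of libraries at 101, 169, 516, 761 and 585 TPM in control LFD and at 237, 180, 133, 67.6 and 61.0 TPM in control HFD. The libraries with the most Pck1 on LFD also had the most of these markers, and their part in the Pck1 difference was not tested.

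Gpam TPM was 70.0, 87.8, 79.5, 88.2 and 86.3 in control LFD and 63.3, 82.1, 95.7, 65.5 and 45.2 in control HFD libraries. The HFD libraries were more scattered and the highest of all libraries in this comparison was among them. Gpam differed by -0.48 ± 0.168 (adjusted p = 0.127 by edgeR) and by -0.49 ± 0.156 (adjusted p = 0.0575) with the GC slope.

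The glycerol channel Aqp7 was at 40, 29.8, 30.6, 26.8 and 46 TPM in control LFD and 45, 46, 46.8, 38.6 and 49.1 TPM in control HFD libraries. Its HFD values were tight and mostly above those on LFD, but on the edgeR scale the log2 fold change was 0.18 ± 0.137 with an adjusted p of 0.497. The differences of Agpat2, Lpin1, Dgat1 and Mogat1 were smaller than their standard errors. Their precision was unequal: the interval of 2 SE on either side ran from -0.17 to 0.37 for Lpin1, and from -0.97 to 0.96 for Agpat2, whose control LFD values were 94.9, 168, 186, 486 and 133 TPM and whose control HFD values were 523, 219, 219, 107 and 194 TPM. In both groups of Agpat2 a lone library, that with the highest GC slope of its group, stood far above the others.

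**Figure D4:**
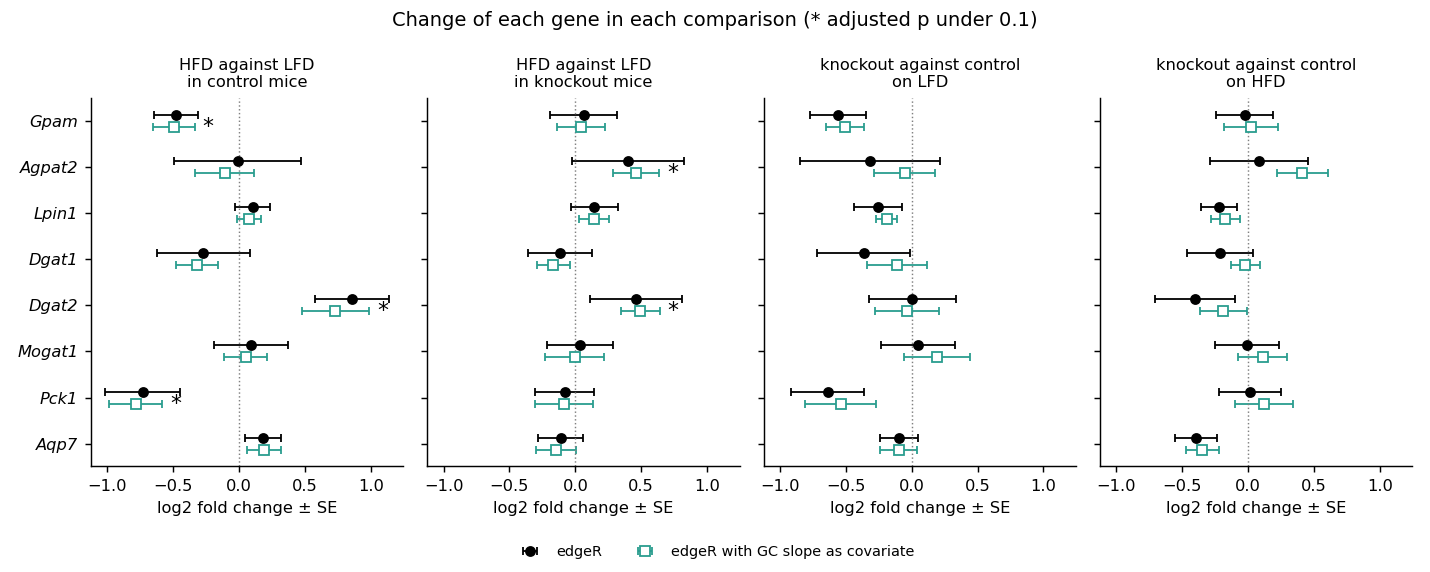
Log2 fold change with its SE (x axes) of the 8 genes (y axis) in the 4 comparisons between pairs of groups, from edgeR (black circles) and from edgeR with the GC slope as covariate (open squares). Stars mark an adjusted p under 0.1; they appear in the diet comparisons and with the covariate alone, on Dgat2, Gpam and Pck1 in control mice and on Dgat2 and Agpat2 in knockout mice.

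In knockout mice the diet comparison gave 0 of the 8 genes past the edgeR test, beside 9.40% of the 15705 genes tested, and 0 at an unadjusted p under 0.05, beside 19.8%. DESeq2 also gave 0 (14.3% of genes). Dgat2 TPM was 124, 258, 170, 67.6 and 71.3 in knockout LFD and 177, 147, 175, 154 and 360 in knockout HFD libraries. The groups overlapped, with the highest library of each being that with the highest GC slope. The log2 fold change of Dgat2 was 0.46 ± 0.348 (adjusted p = 0.520 by edgeR), and 0.49 ± 0.148 (adjusted p = 0.0451) with the GC slope, where 23.3% of genes passed. Single libraries moved the value without the slope, to 0.19 without knockout HFD replicate 21, 0.30 without knockout LFD replicate 9 and 0.77 without knockout LFD replicate 7. Agpat2 was the other gene to pass with the slope, at 0.46 ± 0.174 (adjusted p = 0.0965), against 0.40 ± 0.426 without it. Of the 18 white adipocyte markers 14 were higher and 4 lower on HFD in knockout mice, 4 rising and 0 falling past the test. Their median log2 fold change on the edgeR scale was 0.346. Their summed level was 21166 to 27394 TPM on LFD and 27542 to 41281 TPM on HFD. The part of these markers in the diet differences of the 8 genes and the other pathway genes was not tested.

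Pck1 in knockout mice was at 327, 342, 362, 252 and 406 TPM on LFD and at 487, 250, 408, 248 and 295 TPM on HFD. The groups overlapped, and the log2 fold change was within its standard error at -0.08 ± 0.225, as were those of the 6 other genes apart from Dgat2. Gpam was at 76.2, 64.8, 86.5, 35.9 and 41.5 TPM on LFD and at 54.6, 52.5, 47.7, 80.6 and 110 TPM on HFD, and its interval of 2 SE ran from -0.44 to 0.57.

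Whether the diet responses differed between genotypes was tested as an interaction over all 20 libraries. None of the 8 genes passed (edgeR, 0 at an unadjusted p under 0.05 as well, where 3.60% of genes stood, and 0 by DESeq2, which called 0.0899% of genes), and 0.00% of the 15574 genes tested did. The largest differences of the diet responses, knockout less control, were 0.64 ± 0.379 for Pck1, 0.52 ± 0.320 for Gpam and -0.42 ± 0.484 for Dgat2, each with an adjusted p of 0.9999. A different diet response of Pck1 or Gpam in the genotypes was not detectable with 5 mice per group, and the intervals of 2 SE ran from -0.12 to 1.39 for Pck1 and from -0.12 to 1.16 for Gpam.

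Over both genotypes, with genotype as a term, Dgat2 rose on HFD by 0.66 ± 0.242 on the log2 scale, a 1.58-fold change (edgeR adjusted p = 0.0600). It was the only member of the 8 to pass in this fit, where 25.2% of the 15574 genes did, and by DESeq2 (27.7% of genes), and the only one at an unadjusted p under 0.05, beside 31.3%. The call rested on single libraries: the adjusted p was 0.1008 without control LFD replicate 3 (0.63), 0.1002 without control LFD replicate 5 (0.61), 0.120 without control HFD replicate 11 (0.51) and 0.138 without knockout HFD replicate 21 (0.55). With the GC slope the change was 0.58 ± 0.158 (adjusted p = 0.00842; 38.6% of genes passed). Pck1 differed by -0.40 ± 0.198 (adjusted p = 0.171) and passed with the slope at -0.44 ± 0.183 (adjusted p = 0.0757) and without knockout HFD replicate 17 (-0.50, adjusted p = 0.0671). The other 6 genes did not pass in either fit. Without the slope Gpam (-0.21 ± 0.166) and Lpin1 (0.12 ± 0.112) lay beyond their standard errors, and with it Dgat1 (-0.25 ± 0.122) and Agpat2 (0.19 ± 0.164) did too. In this pooled fit 13 of the 18 white adipocyte markers were higher and 5 lower on HFD, 7 rising and 1 falling past the test. Their median log2 fold change was 0.218. The part of these markers in the pooled diet differences, also those of the other pathway genes below, was not tested.

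The question of what Tmem120a loss does to these genes was addressed on each diet. On LFD, 0 of the 8 genes passed edgeR's test between knockout and control mice, beside 0.00636% of the 15717 genes tested, and 0 passed by DESeq2 (0.108% of genes). At an unadjusted p under 0.05 there were 2, beside 5.11% of genes. These were Gpam, with a log2 fold change of -0.56 ± 0.214 (adjusted p = 0.929), and Pck1, with -0.64 ± 0.275 (adjusted p = 0.929). Gpam ranged from 35.9 to 86.5 TPM in knockout and from 70.0 to 88.2 TPM in control LFD libraries, and its 2 lowest values belonged to knockout replicates 9 and 10, the libraries with the lowest GC slopes of their group. With the GC slope the Gpam difference was -0.51 ± 0.144 (adjusted p = 0.522). Pck1 ranged from 252 to 406 TPM in knockout and from 282 to 643 TPM in control LFD libraries. With the slope its difference was -0.54 ± 0.270 (adjusted p = 0.587). The genotypes overlapped in both genes. Several marker lists also leaned in a direction in the same libraries, with 0 genes past the test: all 9 fat progenitor and all 16 muscle fibre markers were lower, all 9 lymphocyte markers were higher, and 17 of 18 white adipocyte markers were lower, at a summed 21166 to 27394 TPM in knockout and 23416 to 31567 TPM in control libraries, and their part was not tested. Lpin1 (-0.25 ± 0.182) and Dgat1 (-0.36 ± 0.352) were lower by more than their standard errors without passing. Dgat1 was at -0.11 ± 0.227 with the slope and turned to 0.06 without control LFD replicate 4.

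On HFD, again 0 of the 8 genes passed edgeR's test (0.00657% of the 15228 genes tested) or DESeq2 (0.657%), and 1 stood at an unadjusted p under 0.05, beside 4.66% of genes. This was Aqp7, at 43.7, 32.5, 36.7, 26.2 and 43.6 TPM in knockout HFD libraries against the 38.6 to 49.1 TPM of control HFD libraries. Of the knockout libraries 3 lay below all controls and the other two within their range. The log2 fold change was -0.39 ± 0.161 with an adjusted p of 0.999, and -0.35 ± 0.128 with an adjusted p of 0.700 with the GC slope. Dgat2 (-0.40 ± 0.303) and Lpin1 (-0.22 ± 0.135) were the other genes beyond their standard errors. The Dgat2 difference was -0.19 ± 0.180 with the GC slope, -0.10 without control HFD replicate 11 and -0.68 without knockout HFD replicate 21. Agpat2 moved from 0.08 ± 0.373 to 0.41 ± 0.193 with the slope (adjusted p = 0.730). Pck1, at 0.02 ± 0.236, had an interval of 2 SE from -0.46 to 0.49. All 16 muscle fibre markers were higher in knockout libraries, 0 past the test, at a summed 124 to 1941 TPM against 53.0 to 135 TPM in controls, and 14 of 18 white adipocyte markers were lower, 0 past the test. All 8 endothelium markers were lower (median -0.222) and 7 of 8 brown and beige adipocyte markers higher (median 1.02), 0 past the test in either list. The part of these markers was not tested.

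Pooled over both diets, the genotype difference gave 0 of 8 genes past the edgeR test (0.0385% of the 15574 genes tested) and 0 by DESeq2 (0.205%), and Lpin1 (-0.24 ± 0.112) and Aqp7 (-0.25 ± 0.115) were at an unadjusted p under 0.05, beside 7.44% of genes, with an adjusted p of 0.657 each. The median log2 fold change of the 8 genes was -0.25 and that of all genes tested was -0.01. The 18 white adipocyte markers had a median of -0.245, 16 of them below 0 and 0 past the test, and their part in the values of the 8 genes was not tested. Pck1 was at -0.32 ± 0.198 and Gpam at -0.30 ± 0.167. With the GC slope Pck1 was at -0.21 ± 0.192, Gpam at -0.24 ± 0.142 and Dgat1 at -0.07 ± 0.127, the last from -0.30 ± 0.228.

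The balance of the 2 diacylglycerol acyltransferases was compared directly, since a ratio of genes within a library does not depend on its scaling. The ratio of Dgat2 to Dgat1 TPM was 4.43, 2.27, 1.52, 1.29 and 1.63 in control LFD and 4.47, 4.85, 3.13, 3.49 and 4.17 in control HFD libraries. It was 2.16, 2.76, 2.98, 1.32 and 1.56 in knockout LFD and 3.17, 4.07, 3.74, 2.90 and 4.03 in knockout HFD libraries. The HFD libraries of both genotypes lay at the upper end, and in each genotype a lone LFD library, control replicate 1 and knockout replicate 8, reached into their range.

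On the log2 scale the ratio differed by 0.989 between diets in control mice (1.99 ± 0.260 against 1.0 ± 0.707, SD, n = 5; two-sided exact permutation p = 0.0317) and by 0.791 in knockout mice (1.83 ± 0.218 against 1.04 ± 0.509; exact p = 0.0159). Both adjusted p-values were 0.127 over the 8 exact tests run on ratios and transcript shares, and 5 against 5 libraries allow no p under 0.00794. Between genotypes the differences were 0.038 on LFD (exact p = 0.937) and -0.160 on HFD (exact p = 0.294). The share of Aqp7-002 in Aqp7, the other quantity tested, was 16.1% ± 22.7 in control LFD, 28.6% ± 28.0 in knockout LFD, 22.5% ± 21.2 in control HFD and 44.7% ± 35.6 in knockout HFD libraries (SD, n = 5; exact p from 0.286 to 0.762 over the 4 comparisons).

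The gene next upstream of Dgat2 is Mogat2, a monoacylglycerol acyltransferase of the same family, 36.4 kb away with 0 annotated genes between. Mogat2 was scarce, at 0.51 to 0.67 TPM in control LFD and 0.96 to 4.09 TPM in control HFD libraries, and it rose on HFD in control mice by 1.75 ± 0.409 on the log2 scale (edgeR adjusted p = 0.0333). In knockout mice its difference was 1.87 ± 0.997 (adjusted p = 0.332), with a pair of LFD libraries under 0.01 TPM. By TPM, both Dgat2 and Mogat2 were higher in every control HFD library than in any control LFD library. For Dgat2 the margin was smaller than the shift of the TPM scale.

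The rest of the pathway was described from 29 other genes, of which 23 or 24 passed the filter on low values in a comparison. On HFD in control mice 1 rose and 1 fell past the edgeR test, beside 4.42% of genes that rose and 4.90% that fell. These were Mogat2 and Gpd2, the mitochondrial glycerol 3-phosphate dehydrogenase of the glycerol phosphate shuttle. Gpd2 was at 27.3 to 51.5 TPM in control LFD and 11 to 15 TPM in control HFD libraries, with no overlap, as for 9.78% of genes. It fell by 1.86 ± 0.158 on the log2 scale (edgeR adjusted p = 0.000513). By TPM, Mogat2, the acyl-CoA synthetase Acsl1 and the acyltransferase Lclat1 did not overlap either, and neither Acsl1 nor Lclat1 passed. For Acsl1 the nearest values were 738 TPM on LFD and 745 TPM on HFD, and for Lclat1 15.3 and 15.8 TPM. Both margins were smaller than the 0.20 log2 shift of the TPM scale. The 8 brown and beige adipocyte markers were lower in the same comparison, 4 of them past the test, with a summed level of 101 to 761 TPM on LFD and 61.0 to 237 TPM on HFD, and their part in the change of Gpd2 was not tested.

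In knockout mice 3 of the other pathway genes rose (4.55% of genes rose) and 1 fell (4.85% fell). Gpd2 fell by 1.05 ± 0.242 (adjusted p = 0.0278). Its knockout HFD values, 15.1 to 29.3 TPM, all lay above those of control HFD mice, which reached 15.0 TPM. Ranges without overlap between these groups were found for 0.690% of genes. That genotype difference on HFD, 0.65 ± 0.218, had an adjusted p of 0.828, and the difference between the diet responses, 0.78 ± 0.303, had one of 0.9999. Acsl3, which activates fatty acids to acyl-CoA, rose by 1.0 ± 0.211 (adjusted p = 0.0193). Gpat3, a glycerol 3-phosphate acyltransferase of the endoplasmic reticulum, rose by 0.45 ± 0.0990 (adjusted p = 0.0241). It was at 26.1 to 33.1 TPM on LFD and 40.3 to 50.4 TPM on HFD, without overlap, as for 7.95% of genes. Acsl1 did not overlap either, and did not pass. Its nearest values were 629 TPM on LFD and 634 TPM on HFD. They were closer than the 0.096 log2 units by which the TPM scale sat higher on HFD in knockout mice. Gyk, the glycerol kinase, rose by 0.79 ± 0.215 (adjusted p = 0.0548), with 3.22 to 8.80 TPM on LFD and 5.99 to 11.6 TPM on HFD. The calls of Gyk and Acsl3 were lost with length offsets (adjusted p = 0.372 and 0.165), and that of Gyk also without knockout LFD replicate 7 (0.77) or 10 (0.75) or knockout HFD replicate 17 (0.68) or 19 (0.74).

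Over both genotypes 4 of the other pathway genes rose on HFD (12.5% of genes rose) and 2 fell (12.7% fell). Acsl1, the main long-chain acyl-CoA synthetase of adipocytes and at 537 to 902 TPM by group mean the most abundant of the 29, rose by 0.44 ± 0.124 (adjusted p = 0.0155). Acsl3 (0.65 ± 0.161), Mogat2 (1.82 ± 0.548) and Gyk (0.44 ± 0.172) rose as well, and the call of Gyk was lost in 8 of the 20 fits that left out a library. Mogat2 averaged 0.430 TPM in knockout LFD libraries, under the filter of 0.5 TPM, against 1.59 TPM in knockout HFD libraries. In the genotype comparison on LFD it stayed under the filter and was not tested. Gpd2 fell by 1.46 ± 0.175 (adjusted p = 8.66e-06), and Pcx, the pyruvate carboxylase that precedes Pck1 in glyceroneogenesis, fell by 0.95 ± 0.324 (adjusted p = 0.0452), a call that was lost without control LFD replicate 4 (-0.71). Gpd1, the cytosolic glycerol 3-phosphate dehydrogenase, differed by -0.42 ± 0.284 (adjusted p = 0.342), and Gpat4 (-0.19 ± 0.119), Agpat3 (-0.10 ± 0.0993), Lclat1 (0.14 ± 0.10), Plpp1 (0.28 ± 0.135) and Plpp3 (0.19 ± 0.116), the most abundant genes of the other lists, did not pass. With the GC slope as covariate 12 of the 24 other pathway genes tested passed over both genotypes, 7 higher and 5 lower, where 38.6% of all genes did. These took in Gpd1 (-0.50 ± 0.119, adjusted p = 0.00280), Gpat4 (-0.23 ± 0.0656, adjusted p = 0.0107) and Plpp1 (0.30 ± 0.103, adjusted p = 0.0300). With the slope 5 passed in control mice, 1 higher and 4 lower, and 11 in knockout mice, 7 higher and 4 lower. In the genotype comparisons 0 of the other pathway genes passed by edgeR or DESeq2. At an unadjusted p under 0.05 there were 2 on each diet, beside 5.11% of all genes on LFD and 4.66% on HFD.

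**Figure D5:**
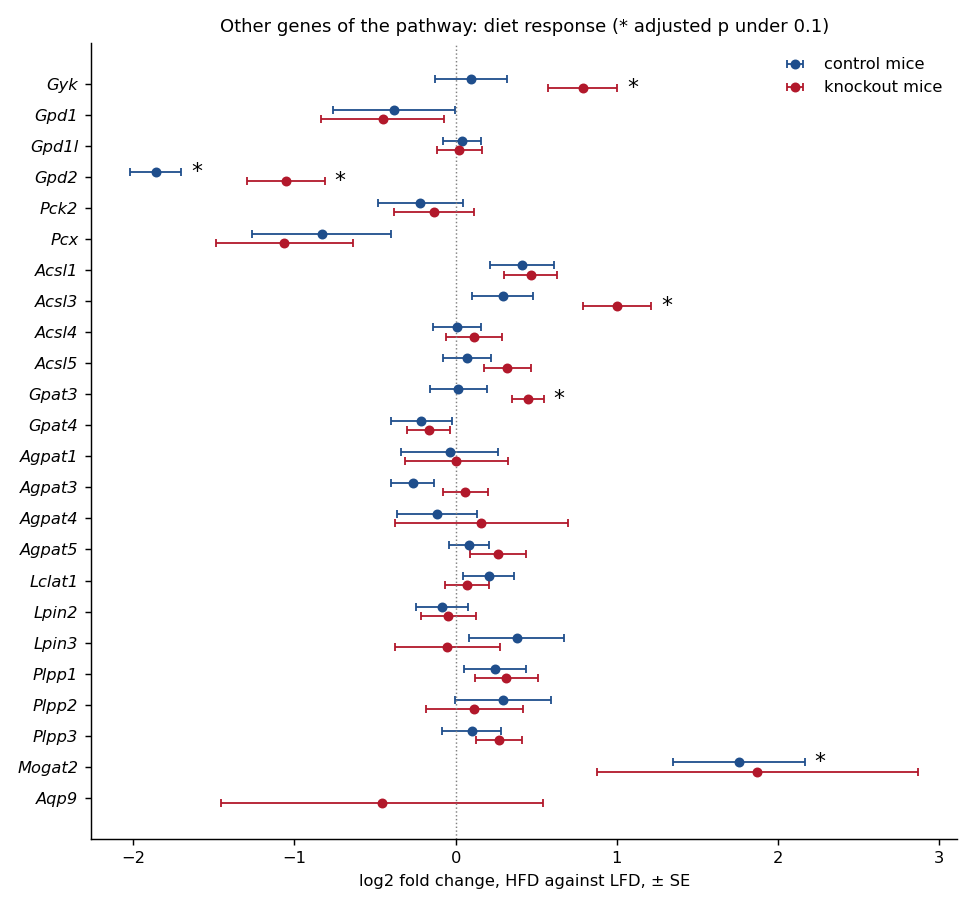
Log2 fold change of HFD against LFD with its SE (x axis) for the other pathway genes that passed the filter on low values (y axis), in control mice (blue) and knockout mice (red). Stars mark an adjusted p under 0.1: Gpd2 falls in both genotypes, Mogat2 is starred in control mice, and Gyk, Acsl3 and Gpat3 in knockout mice.

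Across the 20 libraries the 8 genes varied together to different degrees. The 28 pairs had a median Pearson's r of log2(TPM + 1) of 0.417, from -0.079 to 0.851, and 35.7% of them reached 0.5, against a median of 0.0685 and 12.5% over all pairs of the 13976 genes that averaged 1 TPM or more. These correlations share the libraries, their depth and their base composition. The genes most like Dgat2 were Gpt (r = 0.944), an alanine aminotransferase, Prdx6 (0.937), a peroxiredoxin, and Agfg2 (0.929). Agpat2 was most like Elof1 (0.957), Eif3g (0.953) and Wdr18 (0.953), and Lpin1 most like Kif1c (0.952), March2 (0.946) and Fam83a (0.945). Dgat1 was closest to Dhrs7b (0.941), Dalrd3 (0.935) and Scand1 (0.929), and Mogat1 to Rad9 (0.929), 2310016M24Rik (0.907) and Slc25a5 (0.886), the adenine nucleotide carrier. The closest genes were less alike for Gpam (Il4ra, 0.861, SNORA62, 0.835, and Zbtb8a, 0.814) and Pck1 (Mettl7a1, 0.794, Crls1, the cardiolipin synthase, 0.792, and Ephx2, 0.786). Aqp7 was most like Phf8 (0.906), Zfp423 (0.826) and Sash1 (0.818).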

How the data were processed

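Total RNA from iWAT was made into stranded ribosome-depleted libraries. The authors quantified each library with Salmon 0.13.1 (STAR 2.5.3 is also named in the submitters' processing notes) on Ensembl transcripts of NCBIM37 (mm9) and deposited estimated counts per transcript without normalization between libraries and TPM scaled within each library; the methods also describe an alignment that kept uniquely mapped pairs, and whether the deposited values passed through it is not given in the sources used here. Of 96533 deposited transcripts, 94334 (97.7%) were matched to GENCODE vM1 and summed to 36611 genes; unmatched transcripts held 0.377% to 0.581% of a library's counts.

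Gene sums of estimated counts were rounded and tested in edgeR 4.0.16 (R 4.3.3; TMM scaling, the original quasi-likelihood F test) over all genes that averaged 0.5 TPM or more in the libraries compared, with Benjamini-Hochberg adjustment and calls at an adjusted p under 0.1. SE is the log2 fold change divided by the root of F. Alternatives were RLE scaling, DESeq2 1.42.0, limma 3.58.1 on log2(TPM + 1), no filter, offsets for transcript length, all 20 libraries in 1 fit, each library left out, and, added after the data were seen, the GC slope as a covariate and the newer quasi-likelihood method of edgeR. Two-sided exact permutation tests were used for ratios and shares, and 100000 permutations for correlations with the GC slope. Mice are the replicates. The 8 genes and the gene lists were chosen with earlier results of these data known. Named genes were the 8, the pathway genes that passed (up to 8 a comparison), the 2 most abundant of each pathway list, the 3 genes most like each of the 8, and Tmem120a; Awat2, the next most abundant acylglycerol acyltransferase, stayed under the filter. Marker lists were summed per library.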

Additional observations from a re-analysis of the deposited data

Results flagged for a closer look

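In 5 of the 32 groups of 5 libraries examined for the 8 genes, the highest library stood apart from the others by more than Dixon's 95% critical value (0.71 of the group's range). Independent groups of normal values pass that limit, at either end, in about 1 in 20 cases. The 8 genes share their libraries, so that rate cannot be set directly against these groups. The 5 were Agpat2 in control LFD replicate 4 (486.3 TPM) and in control HFD replicate 11 (523.4 TPM), Dgat1 in knockout LFD replicate 7 (93.23 TPM), Dgat2 in knockout HFD replicate 21 (360.1 TPM) and Mogat1 in knockout LFD replicate 7 (12.24 TPM). Each of these 4 libraries had the highest GC slope of its group, between 0.272 and 0.381, and its part in the levels was not tested. The same libraries gave 11.1% to 18.1% of their counts to AC157822.1, a gene of annotated type misc_RNA, which took 3.24% to 10.7% in the other 16.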

How the results depend on the processing

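In control mice on HFD against LFD, 3 of the 8 genes passed by DESeq2 and with the GC slope as covariate, and 1 (Dgat2) by limma, with length offsets and with the newer quasi-likelihood method, against 0 by edgeR; in knockout mice 2 passed with the slope, and over both genotypes 2. The number of genes called also changed. By DESeq2 it was 2205 and 2247 for the diet comparisons in control and knockout mice, 17 and 100 for knockout against control on LFD and HFD, 14 for the interaction and 32 for the genotype difference over both diets, against 1427, 1476, 1, 1, 0 and 6 by edgeR (560 genes at an unadjusted p under 0.05 for the interaction). With the GC slope it was 3680 and 3663 for the diet comparisons, 6007 over both genotypes against 3931, and 3 and 5 for knockout against control on LFD and HFD. On LFD it was 2 by limma and with all 20 libraries in 1 fit. On HFD it was 3 by both of these, 26 with no filter, 5 with length offsets and 34 with the newer method, and over both diets it was 2 with length offsets.

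Leaving out a library gave 0 to 2 of the 8 genes and 780 to 1845 genes called for diet in control mice, the fewest without control HFD replicate 12, with 810, 873, 868 and 827 without control LFD replicates 2, 3 and 5 and control HFD replicate 13. It gave 753 (without knockout LFD replicate 6) to 1355 genes for diet in knockout mice, with 963 without knockout HFD replicate 21, and 0 to 2 of the 8 genes for diet over both genotypes. For knockout against control it gave 1 to 2 genes on LFD, 2 without control LFD replicate 1, and 1 to 58 on HFD, 58 without knockout HFD replicate 21, 10 without control HFD replicate 12 and 2 without control HFD replicate 15. On LFD the Dgat1 difference ranged from -0.592 to 0.0558 and that of the Dgat2 to Dgat1 ratio from -0.121 to 0.325, negative in 5 of 10 fits. The diet difference of the ratio in control mice, from 0.83 to 1.28, reached an exact p of 0.0556 without control HFD replicate 11 (0.946) or 12 (0.917). The call of Mogat2 in control mice was lost with all 20 libraries in 1 fit (adjusted p = 0.214), and limma lost Gyk in knockout mice (0.2115) and Pcx over both genotypes (0.1295). RLE scaling left each of the 8 genes that differed by more than its SE with its direction and its side of the threshold.

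No paired analysis was possible because the labels used here name no litters or pairs of mice. The controls were littermates per the paper, and the part of litter in the differences was not tested. With 5 mice per group, the SE of a log2 fold change between 2 groups ran from 0.134 (Lpin1) to 0.534 (Agpat2), so differences of Agpat2 and Dgat1 that are modest in size were not detectable here, and a p that misses the threshold does not show that levels were equal. Estimated counts also depend on how Salmon shared reads among transcripts, which bears on Agpat2, Aqp7, Dgat1 and Mogat1 more than on Dgat2.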
